A study of Drosophila melanogaster with 9 samples.

Results

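The circadian clock core genes of Drosophila melanogaster were taken as 9 genes named by their FlyBase symbols: per, tim, Clk, cyc, vri, Pdp1, cwo, cry and jet. All 9 were found by their gene IDs among the 17558 genes listed, and all 9 had enough reads to be among the 8972 genes tested. They were followed in poly(A)-selected RNA from heads of adult females, 1 to 2 days old, raised at 25 °C and 60% humidity. The 9 libraries form 3 groups of 3, from controls, which the labels call wt, from Ime4 heterozygotes and from Ime4 homozygotes. Ime4 encodes the catalytic subunit that methylates adenosines in messenger RNA (m6A). The labels name neither the Ime4 allele nor the strain of the controls, and they give no light regime and no time of day at which heads were collected. Whether replicate libraries came from different flies or cultures is not stated, and the p-values therefore describe library-to-library spread, which may be technical.

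The fly clock is a transcription loop that closes through its own repressors. CLK and CYC bind DNA together and activate per, tim, vri, Pdp1 and cwo. PER and TIM proteins later block CLK and CYC, VRI represses Clk and cry while PDP1 activates Clk, and CWO represses the targets of CLK and CYC. In heads under a light-dark cycle the transcripts of per, tim, vri, Pdp1 and cwo are usually highest from dusk into the early night, and those of Clk and cry around dawn, while cyc and jet are not known for a strong daily rhythm in their RNA. The first 5 are called evening transcripts below and Clk and cry dawn transcripts. Samples taken at different times of day could therefore differ in opposite directions in the evening and the dawn set. This need not hold for every pair of times. A change of level could also take that form, and neither was tested.

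Each library held 2730289 to 4272550 reads in genes. Levels are in CPM, reads scaled to library size, after TMM scaling, given by library or as group mean ± SD, and differences as log2 fold changes ± standard error (SE). Adjusted p-values come from edgeR's quasi-likelihood test, corrected by Benjamini-Hochberg over all 8972 genes, with a threshold of 0.05. Ime4, listed as Mettl3, had 17, 19 and 18 reads in the control libraries, 8, 13 and 16 in the heterozygous and 3, 3 and 2 in the homozygous libraries. Its log2 fold change was -3.00 ± 0.45 in homozygous and -0.65 ± 0.35 in heterozygous against control heads (SE; edgeR adjusted p = 5.56e-04 and 0.285). All 8 photoreceptor markers and all 5 neuronal markers found in the files had reads in every library. Control replicate 3 held 367 CPM summed over 8 ovary markers, against 0 to 3.06 in every other library. Homozygous replicates 1 and 2 held 451 and 474 CPM over 10 midgut markers, against 55.6 to 87.1 elsewhere. Fits without them, or without the 3 libraries with ovary or midgut transcripts, keep homozygous replicate 3 as the only homozygous library. There a difference of homozygous heads rests on 1 library, so only its size is given. Reads outside genes made up 26.2 to 31.7% of the control, 19.1 to 28.4% of the heterozygous and 17.2 to 20.0% of the homozygous libraries. Reads that aligned to several places made up 15.1 to 16.0%, 10.5 to 14.01% and 8.96 to 12.3%, so every control library lay above every Ime4 library. The part of these measures in the results was not tested.

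Against control, tim and vri rose in both Ime4 groups, and Clk moved in opposite directions in them. Clk fell in heterozygous heads and rose in homozygous heads. In homozygous heads Pdp1 also rose and cry fell. In homozygous against control heads 5 of the 9 genes passed the test, 4 higher and 1 lower, where 19.7% of all genes tested passed, 10.9% higher and 8.77% lower. In heterozygous against control heads 3 passed, 2 higher and 1 lower, against 9.32% of all genes, 5.55% higher and 3.77% lower. Between homozygous and heterozygous heads only Clk passed among the 9, higher in homozygous heads, against 5.48% of all genes, 3.38% higher and 2.11% lower. For 6 of the 9 genes no library of either group lay within the range of the other in homozygous against control heads (33.7% of all genes tested), for 4 in heterozygous against control heads (31.7%) and for 3 between the Ime4 groups (26.0%). The median log2 fold change of the 9 genes was 0.50, 0.04 and 0.22 in these comparisons, where the medians over all genes tested were 0.02, -0.01 and 0.02. Both comparisons with control share the same 3 control libraries, so their values are given side by side and are not counted as support for each other.

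**Figure D1:**
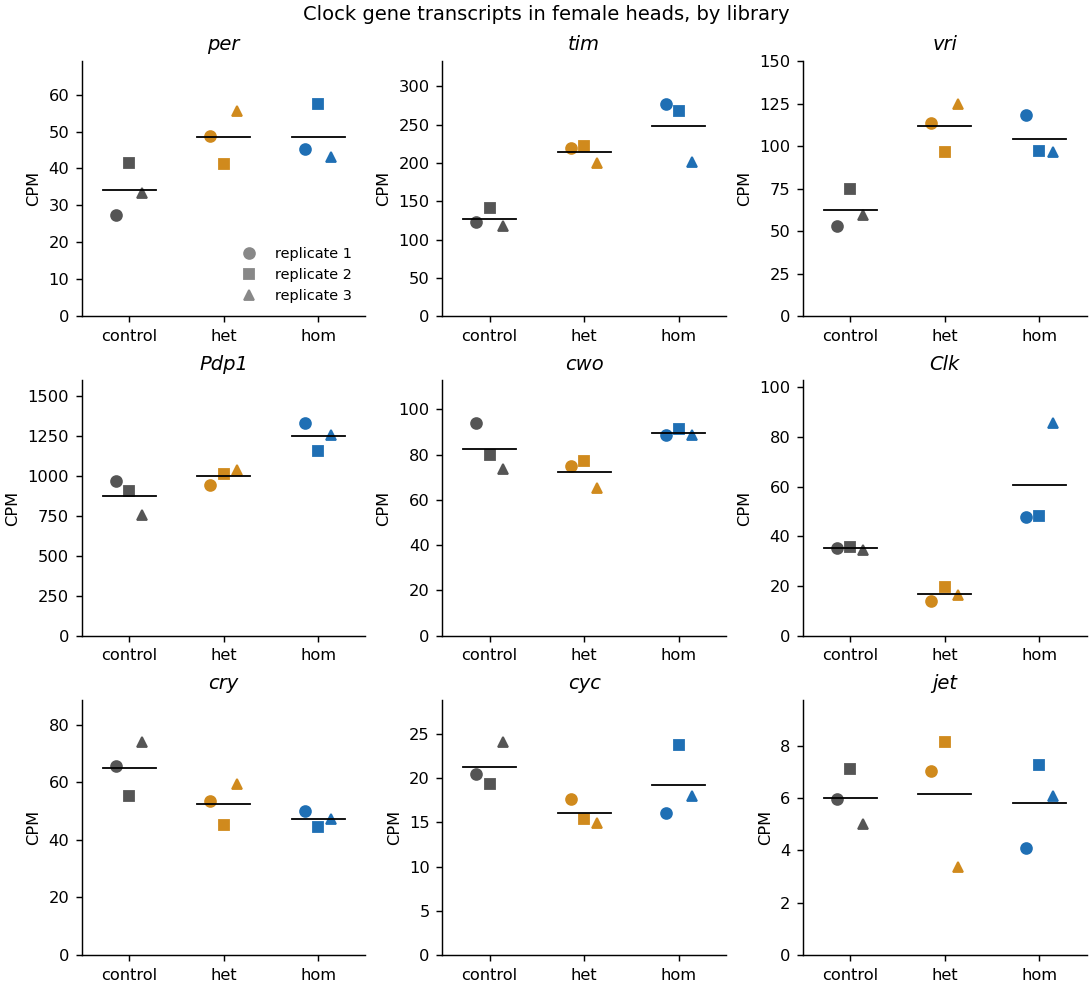
Levels of the 9 clock genes by library in CPM, with control, heterozygous (het) and homozygous (hom) heads on the x axis; points are libraries, marked by replicate number, and black lines are group means. Clk lies between 34.6 and 35.5 CPM in control, between 13.7 and 19.6 in heterozygous and between 47.7 and 85.6 in homozygous libraries, while tim is higher in all 6 Ime4 libraries than in any control library. Of all genes tested, 17.9% had every homozygous library above every control library, and 16.1% every heterozygous library.

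Clk, the bHLH-PAS activator at the head of the loop (FBgn0023076, 3L 7763233 to 7775603, minus strand, BDGP6), had the most divided pattern. It stood at 35.3, 35.5 and 34.6 CPM in the control libraries, at 13.7, 19.6 and 16.5 in the heterozygous and at 47.7, 48.3 and 85.6 in the homozygous libraries. No library of a group overlapped with another group, and homozygous replicate 3 stood well above its 2 partners. Of all genes tested, 15.6% had every heterozygous library below every control library. Every homozygous library was above every control library for 17.9%, and above every heterozygous library for 13.0%. Behind these levels were 95, 125 and 118 reads (control), 49, 70 and 54 reads (heterozygous) and 199, 173 and 352 reads (homozygous). The log2 fold change was -1.08 ± 0.24 in heterozygous against control heads (SE; edgeR adjusted p = 0.0116) and 0.79 ± 0.21 in homozygous against control heads (edgeR adjusted p = 0.0190). Between homozygous and heterozygous heads it was 1.86 ± 0.23 (edgeR adjusted p = 4.65e-04), a 3.64-fold difference.

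The contrast of Clk between the Ime4 groups passed the test without any single library, with log2 fold changes of 1.53 to 2.00 and edgeR adjusted p up to 0.0106. The differences from control were less firm. The fall in heterozygous heads lost its call without heterozygous replicate 1 or 3 (edgeR adjusted p = 0.0669 and 0.0556, at -0.96 and -1.07). The rise in homozygous heads lost its call without any 1 of the 3 control libraries (edgeR adjusted p = 0.0608, 0.0665 and 0.0629, at 0.77 to 0.79). Without homozygous replicate 3 it kept its call at 0.45 (edgeR adjusted p = 0.0388). Without homozygous replicates 1 and 2, with homozygous replicate 3 alone, it stood at 1.26, with 2.33 between the Ime4 groups.

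cyc encodes the partner with which CLK binds DNA (FBgn0023094, 3L 19813770 to 19815938, minus strand). It stood at 20.4, 19.3 and 24.1 CPM in control, at 17.7, 15.4 and 14.98 in heterozygous and at 16.0, 23.8 and 18.0 in homozygous libraries. Every heterozygous library was below every control library, as for 15.6% of all genes tested, and the homozygous libraries overlapped with both. The differences from control, -0.41 ± 0.20 and -0.15 ± 0.19, did not pass the test (SE; edgeR adjusted p = 0.234 and 0.637). In homozygous against control heads cyc stood at -0.26 without homozygous replicates 1 and 2. Within a library, Clk reads were 1.67 ± 0.21 times cyc reads in control, 1.05 ± 0.25 times in heterozygous and 3.25 ± 1.38 times in homozygous heads (SD, n = 3). The proteins were not measured.

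tim, whose protein joins PER and is degraded in light (FBgn0014396, 2L 3493986 to 3508119, minus strand), was the evening transcript with the largest difference in homozygous heads. It stood at 123, 142 and 118 CPM in control, at 220, 222 and 200 in heterozygous and at 278, 268 and 201 in homozygous libraries. All 6 Ime4 libraries lay above all 3 control libraries, and homozygous replicate 3 lay among the heterozygous ones. Of all genes tested, 17.9% had every homozygous library above every control library, and 16.1% every heterozygous library. tim rose by 0.96 ± 0.14 in homozygous against control heads and by 0.75 ± 0.14 in heterozygous against control heads (SE; edgeR adjusted p = 3.53e-04 and 0.00410). The difference between the Ime4 groups, 0.22 ± 0.13, did not pass (edgeR adjusted p = 0.388), and it stood at -0.13 without homozygous replicates 1 and 2. Both calls were kept without any single library, at 0.85 to 1.10 and 0.69 to 0.83. Without homozygous replicates 1 and 2, tim in homozygous against control heads stood at 0.63, from homozygous replicate 3 alone.

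vri encodes the bZIP repressor of Clk and cry (FBgn0016076, 2L 5288944 to 5311223, plus strand). It stood at 53.1, 74.6 and 59.6 CPM in control, at 114, 96.3 and 125 in heterozygous and at 119, 97.0 and 96.6 in homozygous libraries. The Ime4 libraries overlapped with each other and lay above every control library, as did 17.9% (homozygous) and 16.1% (heterozygous) of all genes tested. vri rose by 0.83 ± 0.15 in heterozygous and by 0.73 ± 0.15 in homozygous against control heads (SE; edgeR adjusted p = 0.00414 and 0.00451), and both calls were kept without any single library. Without the 3 libraries with ovary or midgut transcripts, vri in homozygous against control heads stood at 0.58, from homozygous replicate 3 alone.

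per, the founding gene of the pathway, encodes the repressor that enters the nucleus with TIM (FBgn0003068, X 2685580 to 2692780, plus strand). It stood at 27.5, 41.4 and 33.4 CPM in control, at 48.8, 41.2 and 55.6 in heterozygous and at 45.3, 57.6 and 43.1 in homozygous libraries. Every homozygous library was above every control library, as for 17.9% of all genes tested, while the lowest heterozygous library was just under the highest control library. The differences from control, 0.50 ± 0.18 in both comparisons, did not pass the test (SE; edgeR adjusted p = 0.104 in heterozygous and 0.0640 in homozygous heads). For homozygous against control heads per stood at 0.30 without homozygous replicates 1 and 2. It stood at 0.37 without control replicate 1 and at 0.35 without homozygous replicate 2 (edgeR adjusted p = 0.213 and 0.240). It was called without control replicate 2 (0.66, edgeR adjusted p = 0.0433) or homozygous replicate 3 (0.57, edgeR adjusted p = 0.0204), and it was also called with no filter on low counts and with a correction for exon length (edgeR adjusted p = 0.0466 and 0.0417). For heterozygous against control heads it was called when only those 2 groups were fitted, without homozygous replicate 3 or without homozygous replicates 1 and 2 (edgeR adjusted p = 0.0463, 0.0440 and 0.0465). The 3 prime end of per shares 49 exon bases, 1.08% of its exon length, with the antisense gene dyw, and the libraries were made with a directional kit, but whether reads were counted by strand is not given in the sources used here.

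Pdp1 encodes the bZIP activator that opposes VRI at Clk (FBgn0016694, 3L 7811458 to 7867369, minus strand). It lies 35.9 kb from Clk on the same strand. The annotation lists 13 transcripts for it, some of them used in tissues outside the clock, and reads were counted over all of them together. Pdp1 stood at 969, 909 and 754 CPM in control, at 944, 1013 and 1039 in heterozygous and at 1333, 1160 and 1258 in homozygous libraries. The homozygous libraries lay above all others, and control and heterozygous libraries overlapped. Of all genes tested, 17.9% had every homozygous library above every control library, and 13.0% above every heterozygous library. Pdp1 rose by 0.51 ± 0.12 in homozygous against control heads (SE; edgeR adjusted p = 0.00991), a call lost without homozygous replicate 1 (0.44, edgeR adjusted p = 0.0505). In heterozygous against control heads it was 0.19 ± 0.12 and was not called (edgeR adjusted p = 0.391), and it stood at 0.09 without the 3 libraries with ovary or midgut transcripts. The difference between homozygous and heterozygous heads, 0.32 ± 0.12, did not pass (edgeR adjusted p = 0.146), but it was called with a correction for exon length (0.41, edgeR adjusted p = 0.0397).

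cwo, an Orange-domain bHLH repressor of the genes that CLK and CYC activate (FBgn0259938, 3R 10388258 to 10400752, plus strand), was the evening transcript nearest to its control level in homozygous heads. It stood at 94.0, 79.8 and 73.6 CPM in control, at 74.9, 77.3 and 65.4 in heterozygous and at 88.9, 91.4 and 88.6 in homozygous libraries. Control libraries overlapped with both Ime4 groups, and every homozygous library was above every heterozygous library, as for 13.0% of all genes tested. The differences from control were -0.18 ± 0.13 in heterozygous and 0.12 ± 0.12 in homozygous heads, and 0.30 ± 0.12 between the Ime4 groups, none of which passed (SE; edgeR adjusted p = 0.426, 0.530 and 0.184). Without the 3 libraries with ovary or midgut transcripts cwo stood at 0.03 in homozygous against control heads.

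cry encodes the blue-light photoreceptor that resets the clock by binding TIM in light (FBgn0025680, 3R 19212154 to 19215442, plus strand). It stood at 65.8, 55.3 and 73.9 CPM in control, at 53.6, 45.1 and 59.3 in heterozygous and at 50.1, 44.4 and 47.4 in homozygous libraries. Control libraries overlapped with heterozygous ones and lay above all homozygous ones, the latter as for 15.9% of all genes tested. cry fell by 0.46 ± 0.14 in homozygous against control heads (SE; edgeR adjusted p = 0.0402), and it was -0.30 ± 0.15 in heterozygous against control heads, which was not called (edgeR adjusted p = 0.226), with -0.19 without the 3 libraries with ovary or midgut transcripts. The call in homozygous heads was lost in 5 of the 9 fits without a single library (control replicate 1 or 3, heterozygous replicate 1, homozygous replicate 1 or 2; edgeR adjusted p up to 0.147, at -0.52 to -0.35). It was also lost with DESeq2 (adjusted p = 0.0534) and when only those 2 groups were fitted (edgeR adjusted p = 0.0632). Without the 3 libraries with ovary or midgut transcripts cry stood at -0.35, from homozygous replicate 3 alone. Of the exon bases of cry 17.8% are shared with other annotated genes, among them vib on the opposite strand. The share is 9.89% for tim, with a snoRNA and lncRNA:CR46495, and 8.19% for jet, with betaggt-I. cry lies 4817 kb from Mettl3 on the same chromosome arm.

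jet encodes the F-box protein that marks TIM for destruction in light (FBgn0031652, 2L 4948206 to 4949784, minus strand), and it was the shallowest of the 9, with 11 to 29 reads per library. It stood at 5.95, 7.10 and 4.99 CPM in control, at 7.01, 8.12 and 3.36 in heterozygous and at 4.07, 7.27 and 6.08 in homozygous libraries. All groups overlapped, and the differences from control were 0.04 ± 0.35 and -0.06 ± 0.35 (SE; edgeR adjusted p = 0.960 and 0.925). With an SE of this size a difference as large as that of cry would not have been detectable at this depth.

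**Figure D2:**
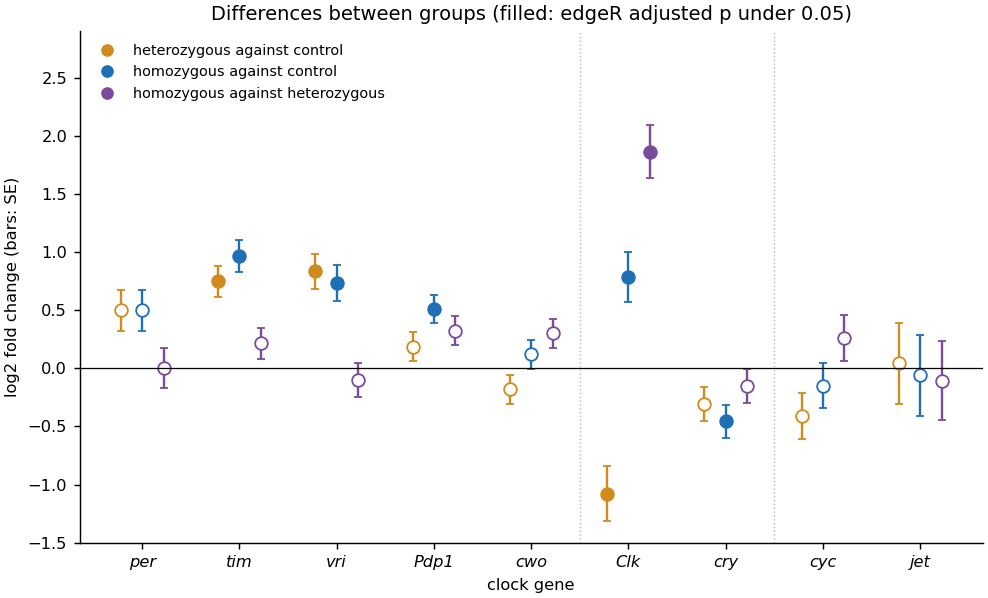
Log2 fold change of each clock gene (y axis) in the 3 comparisons, with SE bars; filled points passed edgeR's test at an adjusted p of 0.05, and dotted lines divide evening transcripts, dawn transcripts and genes without a strong rhythm. Clk stands at -1.08 in heterozygous against control, 0.79 in homozygous against control and 1.86 in homozygous against heterozygous heads, and tim and vri are filled in both comparisons with control.

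Scaled by exon length, as CPM per kilobase (RPKM), Pdp1 was the most abundant of the 9 transcripts in every group, at 72.3 ± 9.14, 82.3 ± 4.03 and 103 ± 7.15 RPKM in control, heterozygous and homozygous heads (SD, n = 3). In control heads cry came next, at 34.3 ± 4.91 on the same scale, and lay above the range of tim at 18.1 ± 1.78. tim, cwo, vri and cyc followed each other there with overlapping ranges, then Clk and per, which overlapped, and jet was lowest at 4.14 ± 0.73. In homozygous heads tim, at 35.3 ± 5.95, stood above the range of cry at 25.0 ± 1.49, and in heterozygous heads both overlapped. Clk held rank 7 of 9 in control, 9 of 9 in heterozygous, where it overlapped with jet, and 6 of 9 in homozygous heads, where it overlapped with cwo, cyc and per. These ranks depend on exon lengths summed over all annotated transcripts, which are longest for Pdp1 at 12138 bases.

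The labels give no collection time, so the evening and dawn transcripts were set against each other within each library, as a description with no test. The mean of all 5 evening transcripts stood 0.37 to 0.46 above the control mean on the log2 scale in heterozygous and 0.46 to 0.64 above it in homozygous libraries. The mean of per, tim and vri stood 0.58 to 0.80 above it in heterozygous libraries. These are the 3 evening transcripts with the largest differences from control there, so this mean is high by choice. Relative to their control means Pdp1 stood at 0.11 to 0.25 there and cwo at -0.33 to -0.09. Clk stood 0.84 to 1.35 below its control mean in heterozygous libraries and cry 0.12 to 0.52 below it. In homozygous heads the mean of per, tim and vri stood at 0.55 to 0.83. There the dawn transcripts parted, with Clk 0.44 to 1.29 above its control mean and cry 0.37 to 0.54 below. In control heads Clk varied by 0.02 at most from its mean on the log2 scale while the mean of per, tim and vri ranged from -0.19 to 0.24. Clk had 95, 125 and 118 reads there, too few to set its level that closely.

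**Figure D3:**
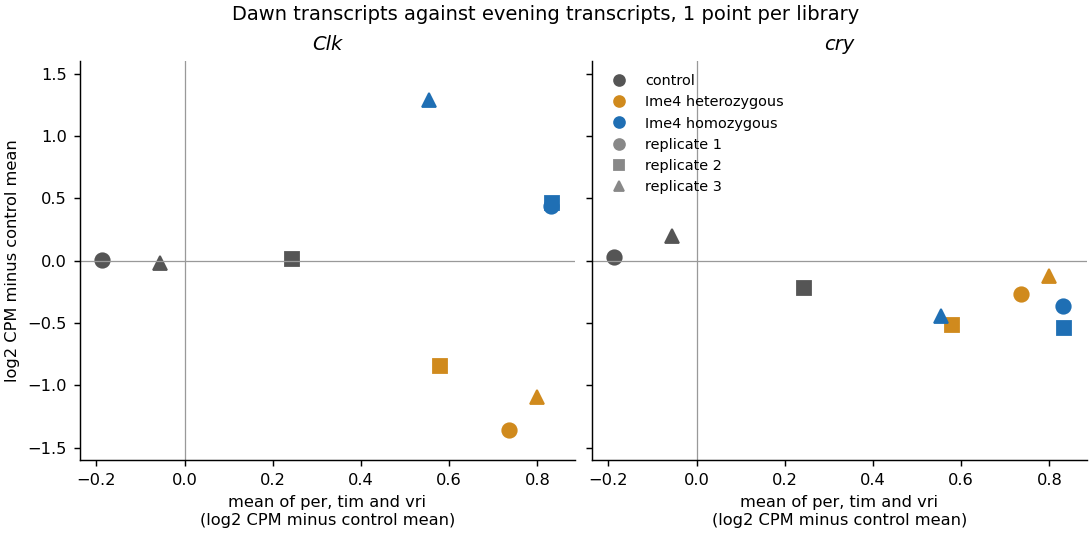
Level of Clk (left) and cry (right) against the mean of per, tim and vri, each in log2 CPM minus the control mean, with 1 point per library coloured by group and marked by replicate. per, tim and vri were picked as the evening transcripts with the largest differences from control in heterozygous heads. Their rise there is therefore no separate result. Heterozygous and homozygous libraries share the range 0.55 to 0.83 on the x axis, while Clk is at or below -0.84 in the former and at or above 0.44 in the latter, and cry is below 0 in both.

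The mean log2 CPM of the 5 evening transcripts minus that of Clk and cry was 1.25 ± 0.23 in control, 2.38 ± 0.11 in heterozygous and 1.69 ± 0.34 in homozygous heads (SD, n = 3). The range was 1.06 to 1.51 in control, from 2.31 to 2.504 in heterozygous and from 1.29 to 1.91 in homozygous libraries, so heterozygous libraries lay apart and control and homozygous libraries overlapped. The difference from control was 1.12 in heterozygous and 0.43 in homozygous heads. Without the 3 libraries with ovary or midgut transcripts the second was -0.06, with homozygous replicate 3 alone set against control replicates 1 and 2. With Clk alone as the dawn transcript the difference from control was 1.52 in heterozygous and -0.16 in homozygous heads, and with cry alone it was 0.73 and 1.02. Of the evening set, cwo did not share the direction of tim and vri in heterozygous heads, at 0.09 to 0.33 below its control mean. A collection time that differed between groups, the genotype and the genetic background cannot be told apart in this design.

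Of all genes tested, 19.7% passed against control for homozygous heads and 9.32% for heterozygous heads, while 5.48% passed between the Ime4 groups. Lists of 8 or 9 genes are too short to tell a small number of calls from these shares. The transcripts of the proteins that modify PER and TIM were followed in such lists. Of 8 genes for their kinases and phosphatases, 0 passed the edgeR test in any comparison, nor with DESeq2 or limma-voom, and 1, 1 and 0 had an unadjusted edgeR p under 0.05 in homozygous against control, heterozygous against control and homozygous against heterozygous heads. Those with the lowest unadjusted p in homozygous against control heads were mts, a catalytic subunit of protein phosphatase 2A, at 0.25 ± 0.11 (SE; edgeR adjusted p = 0.134), and CkIIalpha, a subunit of casein kinase 2, at 0.24 ± 0.12 (edgeR adjusted p = 0.172). Of 9 genes tested for ubiquitin ligases, proteases and the signalosome 1 fell in homozygous heads, Fbxl4 (-0.48 ± 0.15, edgeR adjusted p = 0.0407), and 1 rose in heterozygous heads, Usp8 (0.54 ± 0.12, edgeR adjusted p = 0.0140). Usp8, a ubiquitin protease, stood at 63.9 ± 6.23 CPM in control, 93.1 ± 5.14 in heterozygous and 69.7 ± 5.12 in homozygous heads (SD, n = 3). Its call did not hold without control replicate 1 or heterozygous replicate 1 or 3, and that of Fbxl4 not in 6 of 9 fits without a single library. Fbxl4 stood at -0.24 in homozygous against control heads without homozygous replicates 1 and 2. Fbxl4 was also not called with DESeq2 (adjusted p = 0.0577) or when only those 2 groups were fitted (edgeR adjusted p = 0.0669). ctrip, a ubiquitin ligase that acts on CLK, stood at -0.43 ± 0.15 in homozygous against control heads and was not called (edgeR adjusted p = 0.0579).

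Of 7 transcription factors and cofactors tested 1 fell in homozygous against control heads and 0 passed in the other comparisons, nor with DESeq2 or limma-voom, where 1 (heterozygous against control) and 0 had an unadjusted edgeR p under 0.05. That gene was Fer2, a bHLH factor needed for the formation of ventral clock neurons, at 6.18 ± 0.51 CPM in control and 2.61 ± 0.99 in homozygous heads (SD, n = 3), a difference of -1.22 ± 0.34 (SE; edgeR adjusted p = 0.0237). The call of Fer2 was lost in 5 of 9 fits without a single library (edgeR adjusted p up to 0.0934) and with DESeq2 (adjusted p = 0.0694). Fer2 stood at -0.77 without homozygous replicates 1 and 2. brm, a chromatin remodeller that limits CLK-driven transcription, stood at -0.28 ± 0.11 and was not called (edgeR adjusted p = 0.0839). Of 6 post-transcriptional regulators of the clock, such as tyf and Atx2, which support PER translation, 0 passed in any comparison, with DESeq2 or limma-voom or at an unadjusted edgeR p under 0.05. Over the 61 other clock-related genes tested, homozygous against control heads had 4 that rose and 12 that fell, 26.2% of them where 19.7% of all genes passed. In heterozygous against control heads 4 rose and 2 fell (9.84% against 9.32%), and in homozygous against heterozygous heads 0 rose and 3 fell (4.92% against 5.48%).

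Among 14 genes of clock neuron output Pdf rose in both Ime4 groups. Over all genes tested 10.9% rose in homozygous and 5.55% in heterozygous against control heads. Pdf, the peptide by which clock neurons signal to each other, stood at 11.5, 12.5 and 12.6 CPM in control, at 20.8, 29.1 and 31.8 in heterozygous and at 23.2, 26.8 and 19.2 in homozygous libraries. All Ime4 libraries lay above all control libraries, as for 17.9% (homozygous) and 16.1% (heterozygous) of all genes tested. Pdf rose by 1.15 ± 0.21 in heterozygous and 0.91 ± 0.21 in homozygous against control heads (SE; edgeR adjusted p = 0.00404 and 0.00800), calls kept without any single library. Without homozygous replicates 1 and 2 Pdf stood at 0.63 in homozygous against control heads, from homozygous replicate 3 alone.

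In homozygous against control heads 5 of these 14 genes fell, where 8.77% of all genes tested fell. unc79 and unc80, which encode partners of the sodium leak channel NA, fell by 0.76 ± 0.11 and 0.49 ± 0.10 (SE; edgeR adjusted p = 5.29e-04 and 0.00514), and both calls were kept without any single library. That of unc80 was lost with correction for exon length (edgeR adjusted p = 0.0779), and unc80 stood at -0.44 without homozygous replicates 1 and 2. na itself stood at -0.21 ± 0.13 and was not called (edgeR adjusted p = 0.271). The neuropeptide gene Hug fell by 0.76 ± 0.18 (edgeR adjusted p = 0.00969), without loss when any single library was left out. The peptide genes Dh44 and NPF fell by 0.55 ± 0.17 and 0.90 ± 0.29 (edgeR adjusted p = 0.0350 and 0.0402), and neither call held when any 1 control library was left out. Without homozygous replicates 1 and 2 Dh44 stood at -1.06, Hug at -1.16 and NPF at -0.53, from homozygous replicate 3 alone. NPF was not called with DESeq2 (adjusted p = 0.0841). Neither Dh44 nor NPF was called when only homozygous and control libraries were fitted (edgeR adjusted p = 0.0756 and 0.0546). sNPF, another peptide gene, stood at -0.37 ± 0.13 and was not called (edgeR adjusted p = 0.0579). In heterozygous against control heads ITP fell by 0.48 ± 0.13 (edgeR adjusted p = 0.0305), and it was not called when any 1 control or heterozygous library was left out (edgeR adjusted p up to 0.157).

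**Figure D4:**
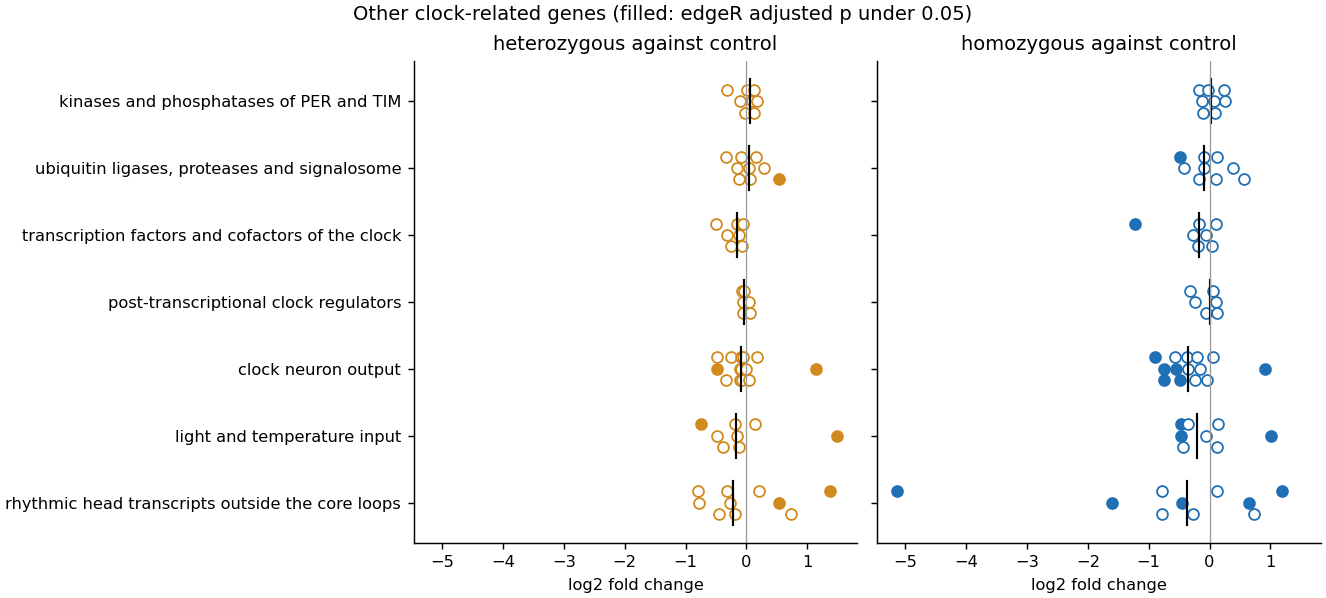
Log2 fold change (x axis) of the other clock-related genes by list, against control, in heterozygous (left) and homozygous (right) heads; points are genes, filled where edgeR's adjusted p was under 0.05, and black lines are list medians. The clock neuron output list has 1 filled gene above 0 and 5 below in homozygous heads, and the far left point is Ugt35B1 at -5.14.

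Light input genes and rhythmic head transcripts outside the loops moved in both directions. Of 8 light and temperature input genes 1 rose and 2 fell in homozygous and 1 rose and 1 fell in heterozygous against control heads. Over all genes tested 10.9% rose and 8.77% fell in the first comparison, and 5.55% rose and 3.77% fell in the second. Rh5, the blue-light opsin of a subset of inner photoreceptors, stood at 32.0, 38.3 and 37.3 CPM in control, at 103, 83.7 and 118 in heterozygous and at 74.5, 64.0 and 79.8 in homozygous libraries. Its differences from control were 1.49 ± 0.15 and 1.02 ± 0.15 (SE; edgeR adjusted p = 4.68e-05 and 5.50e-04), kept without any single library. nocte, needed for temperature entrainment, fell by 0.47 ± 0.12 in homozygous heads, as did ninaE, the major opsin, by 0.47 ± 0.13 (edgeR adjusted p = 0.0119 and 0.0198), and neither was called when control replicate 1 was left out. nocte stood at -0.34 without homozygous replicates 1 and 2, and it was not called with correction for exon length (edgeR adjusted p = 0.0619). ninaE was not called when only homozygous and control libraries were fitted (edgeR adjusted p = 0.0648). norpA, the phospholipase C of phototransduction, fell by 0.74 ± 0.18 in heterozygous heads (edgeR adjusted p = 0.0217), and 5 of 9 fits without a single library did not call it.

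Of 10 rhythmic head transcripts tested 2 rose and 3 fell in homozygous and 2 rose and 0 fell in heterozygous against control heads, to and Usp8. The shares over all genes were 10.9% and 8.77% in homozygous, and 5.55% and 3.77% in heterozygous against control heads. Usp8 is also the gene counted above among the ubiquitin ligases and proteases. The feeding-related gene to stood at 28.6, 18.2 and 8.21 CPM in control, at 41.5, 43.7 and 55.3 in heterozygous and at 51.3, 47.2 and 24.3 in homozygous libraries. Homozygous replicate 3 overlapped with control, and the rises of 1.38 ± 0.34 and 1.18 ± 0.34 (SE; edgeR adjusted p = 0.0227 and 0.0272) were lost without control replicate 2 or 3, among other libraries. Without homozygous replicates 1 and 2 to stood at 0.42 in homozygous against control heads, and at 0.08 without control replicate 3 as well. In that comparison to was also not called when only those 2 groups were fitted or with correction for exon length (edgeR adjusted p = 0.0679 and 0.0673). MFS14 rose in homozygous heads by 0.65 ± 0.18 (edgeR adjusted p = 0.0241), which did not hold when control replicate 1 or 3 or homozygous replicate 2 was left out. Without homozygous replicates 1 and 2 MFS14 stood at 0.63 and trpl at -0.70 in homozygous against control heads. Over all libraries CG10513 and trpl, a phototransduction channel, fell in that comparison by 1.61 ± 0.27 and 0.46 ± 0.13 (edgeR adjusted p = 0.00110 and 0.0241). The call of trpl was lost without control replicate 2. It was also lost when only those 2 groups were fitted or with correction for exon length (edgeR adjusted p = 0.0539 and 0.0707). Ugt35B1 fell from 84.4 ± 2.86 CPM in control and 74.1 ± 3.57 in heterozygous to 2.403 ± 0.95 in homozygous heads (SD, n = 3).

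Markers of several head cell types differed between the same groups, and their part in the results was not tested. Heads are mixtures, so fewer cells of a type and less RNA per cell cannot be told apart. The 8 photoreceptor markers, cells that hold clocks and cry, summed to between 28149 and 30081 CPM in control, between 26103 and 29094 in heterozygous and between 22694 and 23842 in homozygous libraries. Over all genes tested 10.9% rose and 8.77% fell in homozygous, and 5.55% rose and 3.77% fell in heterozygous against control heads. In homozygous against control heads 1 of the 8 photoreceptor markers rose (chp) and 3 fell (ninaE, ninaC and Arr2). In heterozygous against control heads 2 rose, trp and Arr1 (0.43 and 0.46, edgeR adjusted p = 0.0469 and 0.0444), and 1 fell, norpA. The 5 neuronal markers summed to 5545 to 6389, 4654 to 4974 and 4049 to 4636 CPM. elav and Syt1 fell in both Ime4 groups, while nSyb, brp and Rdl were called in neither. In homozygous against control heads nSyb, brp and Rdl stood at -0.08, -0.28 and -0.17 (edgeR adjusted p = 0.657, 0.118 and 0.384). Syt1 alone stood at 2318, 2375 and 2038 CPM in control and at 1095, 1049 and 1180 in homozygous libraries. Of 6 glial markers, another cell type with clocks, alrm fell in homozygous heads and the sums were 4704 to 5169, 5238 to 5954 and 5402 to 6725 CPM. Most of each sum was Gs2, at 4041, 3690 and 3552 CPM in control and 5626, 4518 and 4202 in homozygous libraries. Gs2 stood at 0.35 in homozygous against control heads and was not called (edgeR adjusted p = 0.0886). The 7 fat body markers in the files summed to 4097 to 6065 CPM in control, to 6922 to 10897 in heterozygous and to 3352 to 9120 in homozygous libraries. Of 6 tested 3 rose in each Ime4 group, apolpp and Sodh1 in both, Yp2 in heterozygous and Lsp2 in homozygous heads. The shares of all genes that rose were 5.55% in heterozygous and 10.9% in homozygous against control heads. The lowest fat body sum was in homozygous replicate 3, the library that was highest in Clk and lowest in tim of its group.

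For each clock gene called in a comparison, the 3 genes whose log2 CPM followed it most closely over the 9 libraries were listed, by Pearson's r, out of the tested genes whose mean reached 10 CPM. These values describe libraries that share groups and depth. Clk was followed most closely by CG5326 (r = 0.984), Crg-1, a forkhead gene named for circadian regulation (r = 0.972), and CG1213 (r = 0.961). Crg-1 stood at 31.2, 20.2 and 37.5 CPM in control, heterozygous and homozygous heads. The closest to tim were CG15023, nudE and MP1 (r = 0.988, 0.982 and 0.982), and MP1, a serine protease of the melanization cascade, stood at 46.6, 91.7 and 103 CPM. The closest to vri were Cap-D3, Faa and Best2 (r = 0.966, 0.957 and 0.956), and those to Pdp1 were drk, CG10555 and fok (r = 0.978, 0.967 and 0.961). cry was followed less closely, by alpha-Man-Ib, spel1 and na (r = 0.934, 0.926 and 0.919).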

How the data were processed

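Poly(A) RNA of 9 libraries was sequenced by the submitters. Per the submitters' processing notes, CASAVA 1.8.4, STAR 2.4.0h, the BDGP6 build and HTSeq 0.6.1 were used, and DESeq2 1.6.3 for tests not used here. The authors deposited read counts per gene, with 5 lines of uncounted reads that were left out. Of 17558 gene IDs 17252 matched the Ensembl release 115 annotation of the same build, the source of coordinates, exon lengths and symbols. slmb, Cyp6a21, para and FASN1 were not matched.

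Counts were scaled by TMM and tested in edgeR 4.0.16 (R 4.3.3) with 3 group means, after filterByExpr (minimum count 10, minimum total 15). Alternatives covered relative log expression and upper-quartile factors, no filter or 10 CPM in 3 libraries, DESeq2 1.42.0, limma-voom (limma 3.58.1), fewer groups or libraries, the replicate number as a block, correction for exon length (loess, span 0.3) and a threshold of 0.01. Scripts were tested on simulated data. The members, gene lists and tests were chosen with earlier results of these data known. The genes named were the 9 members, Mettl3, every called gene of the other lists with up to 2 others by lowest p, and the 3 closest genes by correlation with a pseudocount of 0.5 CPM. Genes named as examples of an uncalled list, cell type markers and dyw and vib, which overlap members, were added after their values were seen.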

Additional observations from a re-analysis of the deposited data

Results flagged for a closer look

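Among the clock genes and the other listed genes, 4 differed between the Ime4 groups by the direct test of homozygous against heterozygous heads, so that their differences from control were unequal. Over all genes tested 5.48% passed in that comparison. Clk was 1.86 ± 0.23 higher on the log2 scale in homozygous heads (SE; edgeR adjusted p = 4.65e-04), with all 3 homozygous libraries above all 3 heterozygous ones, as for 13.0% of all genes tested. Ugt35B1 stood at -4.95 ± 0.20 (edgeR adjusted p = 5.71e-09). The peptide gene Dh44 stood at -0.73 ± 0.17 and unc79 at -0.50 ± 0.11 (edgeR adjusted p = 0.0218 and 0.0196). Both of these calls were lost without any 1 heterozygous library. That of unc79 was also lost without homozygous replicate 2 (edgeR adjusted p up to 0.0977 for unc79). Without homozygous replicates 1 and 2, with homozygous replicate 3 alone, Dh44 stood at -1.25 and unc79 at -0.43. Groups of 3 libraries are too small to look for single outlying libraries by a formal rule.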

How the results depend on the processing

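The 3 libraries of a group and the reads of the shallow genes, 11 to 29 per library for jet, set the limits of these values. Of 537 values of a clock gene under an alternative 489 kept direction and side of the threshold, 16 lost a call, 8 gained one and 24 changed sign. Only 5, 3 and 1 of the 9 genes were called in homozygous against control, heterozygous against control and homozygous against heterozygous heads. Most of the values kept were therefore of genes not called. Of the 16 lost calls 14 were in homozygous against control and 2 in heterozygous against control heads. For called values of other genes, 444 were kept and 92 lost. All of these counts include fits with homozygous replicate 3 as the only homozygous library. The number of clock genes called without a single library was 3 to 6 in homozygous against control, 2 to 4 in heterozygous against control and 1 to 1 between the Ime4 groups. It was 3 in homozygous against control heads at a threshold of 0.01, and 2 between the Ime4 groups with correction for exon length. The causes were not tested.

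Calls over all genes without a single library ranged from 1130 to 2477, 362 to 1442 and 139 to 1099 in homozygous against control, heterozygous against control and homozygous against heterozygous heads, where 1765, 836 and 492 were called. At the threshold of 0.01 they were 860, 316 and 159. With only 2 groups fitted there were 1370 for heterozygous against control, and with no filter 806 for homozygous against heterozygous. Without homozygous replicates 1 and 2 the last 2 comparisons gave 1361 and 802, and without control replicate 3 as well 1357 and 1049.

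The difference in evening minus dawn level was 0.43 for homozygous and 1.12 for heterozygous against control and -0.69 between the Ime4 groups. Without single libraries it was 0.32 to 0.63, 1.03 to 1.25 and -0.80 to -0.49. Without the 3 libraries with ovary or midgut transcripts it was -0.06 for homozygous against control and -1.09 between the Ime4 groups, both from homozygous replicate 3 alone. Choices made after seeing the data gave -0.16, 1.52 and -1.68 with Clk alone, 1.02, 0.73 and 0.29 with cry alone, and 1.40 for heterozygous against control without Pdp1 and cwo.

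Changes of sign were found for per, tim and jet, none of them called. Between the Ime4 groups per stood at 0.00, and at -0.01 with relative log expression factors, DESeq2 or the replicate block, -0.00 with upper-quartile factors or limma-voom, -0.20 without homozygous replicates 1 and 2 and -0.17 without the 3 libraries, where tim, at 0.22 over all libraries, stood at -0.13 and -0.10. Without single libraries per ranged from -0.15 to 0.09 there. jet in heterozygous against control heads was -0.03 with limma-voom, -0.08 without the 3 libraries and -0.02 with correction for exon length, and without single libraries it ranged from -0.20 to 0.34, from -0.26 to 0.12 in homozygous against control and from -0.41 to 0.14 between the Ime4 groups.

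Libraries were not paired by their replicate numbers. Deviations from group means correlated at -0.0659 to 0.117 for the same number and -0.114 to 0.114 for other numbers. With the replicate number as a block 1664, 777 and 451 genes were called and 5, 3 and 1 of the clock genes, and no call of a clock gene changed.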
